A study of Rattus rattus with 8 samples.

Results

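Follicles of 2 rats exposed to a shock wave of 145 kPa (21.03 psi), titled M2 and M3, were compared with those of 3 sham control rats at 0 kPa, titled C1, C2 and C3. These 5 rats were chosen by the pressure in their labels out of 8 in the series; the others, 1 rat at 175 kPa and 2 rats at 200 kPa, entered the normalization, and the 200 kPa rats also entered 1 direct comparison. All were adult male Sprague-Dawley rats of the same age range, and whisker follicles of each rat were pooled for a single array. Exposed rats were held in sleeves under isoflurane with only the head in the shock tube, and were observed for a shorter or a longer period that was not known for each rat. The comparison asked which transcripts of the follicle differed after the lowest pressure used.

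A whisker follicle is a richly innervated sense organ that also builds a hair shaft. It holds epithelial root sheaths, a dermal papilla and a blood sinus, so RNA of a pulled follicle comes from several kinds of cell. In such bulk RNA, fewer cells of a type and less RNA per cell cannot be told apart. The labelled tissue could not be checked against its keratins or other markers, because the files used here identify probes by accession alone.

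Each array held 58717 spots other than controls, for 30367 probes. A probe counted as well above background where most of its spots passed the scanner software's test for that. This was so for 68.0%, 60.9% and 63.7% of the probes in C1, C2 and C3, and for 65.5% and 60.5% in M2 and M3. The median processed signal before normalization was 280.5, 90.88 and 105.8 in C1, C2 and C3 and 179.9 and 93.34 in M2 and M3. Of the 5 arrays, C1 was the brightest and C2 the dimmest. Values given from here on are log2 intensities after quantile normalization, and differences are 145 kPa minus sham unless stated. Only 2 and 3 arrays limit the precision of every group value.

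The array of M3 was less like its nearest neighbour than each of the other 7 arrays was. Across 30217 probes, its correlation with the others ranged from 0.955 to 0.976, while M2 reached 0.988 with C3. The highest correlation of C1, C2 and C3 with any other array was 0.983, 0.984 and 0.991, and that of the 175 kPa array 0.984. By the median correlation with the others M3 was hardly lower, at 0.974 against 0.975 for the 175 kPa array and 0.977 for C2. M3 also had the most outlier spots, 947 against 753 in M2 and 450, 630 and 409 in C1, C2 and C3. Among 1061 probes printed 10 times on each array, the median SD between the spots was 0.102 in M3, 0.078 in M2, and 0.061, 0.086 and 0.068 in C1, C2 and C3. Every gene below is therefore given for M2 and M3 separately as well as for their mean.

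Synthetic RNAs added during labelling gave a second measured difference between the arrays. Before normalization, the mean log2 signal over their 10 control probes was 12.94, 12.15 and 12.44 in C1, C2 and C3, and 11.56 and 11.79 in M2 and M3. For 9 of the 10 probes, both 145 kPa arrays lay below all 6 other arrays. The differences in group mean for single spike-in probes ran from -1.21 to 0.15. The other 3 arrays, from rats at 175 and 200 kPa, had means of 11.97, 12.06 and 12.37. The part of these levels in the differences described here was not tested.

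**Figure D1:**
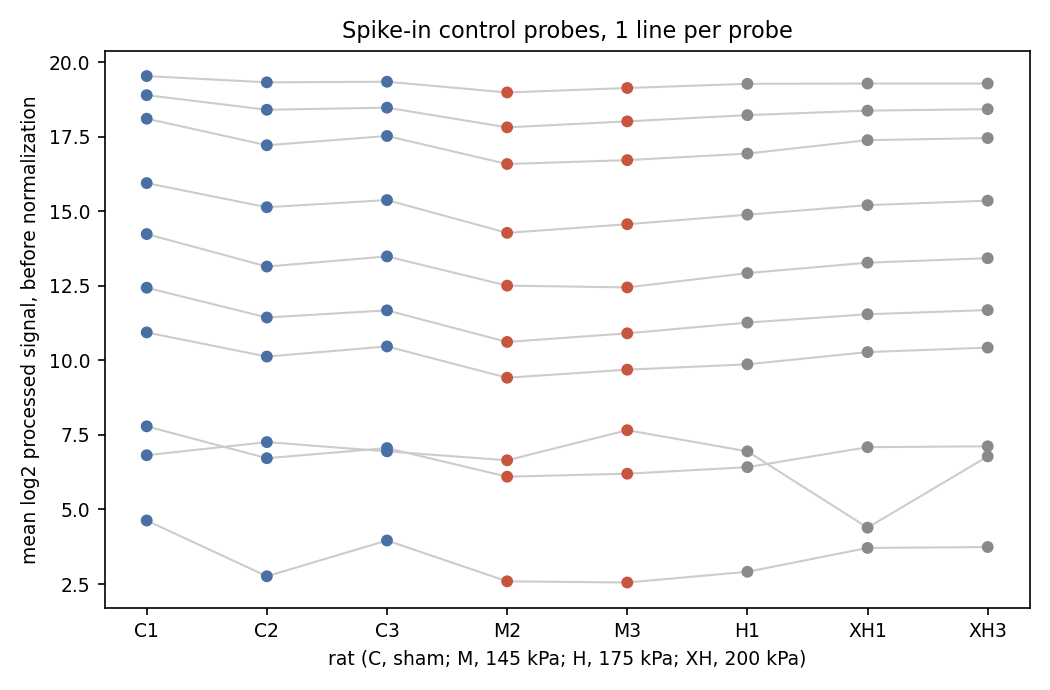
Mean log2 processed signal before normalization (vertical axis) of each of the 10 spike-in control probes, joined by a line, on the 8 arrays (horizontal axis; blue, sham; red, 145 kPa; grey, higher pressures). In M2 and M3 the points lie below those of all 6 other arrays for 9 of the 10 probes.

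Rats of the same group differed widely from each other. Among 17203 probes well above background on all 5 arrays, 4748 (27.6%) were at least 2-fold apart between M2 and M3. Between sham rats this count was 3072 for C1 and C2, 1660 for C1 and C3, and 1250 for C2 and C3. M2 was at least 2-fold apart from C1, C2 and C3 at 1202, 2416 and 573 probes. For M3 the counts were 6196, 2509 and 3206. M2 thus differed at fewer probes from each sham rat than from the other rat of its own group. The SD of the difference from the sham mean was 0.45 for M2 and 0.88 for M3.

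**Figure D2:**
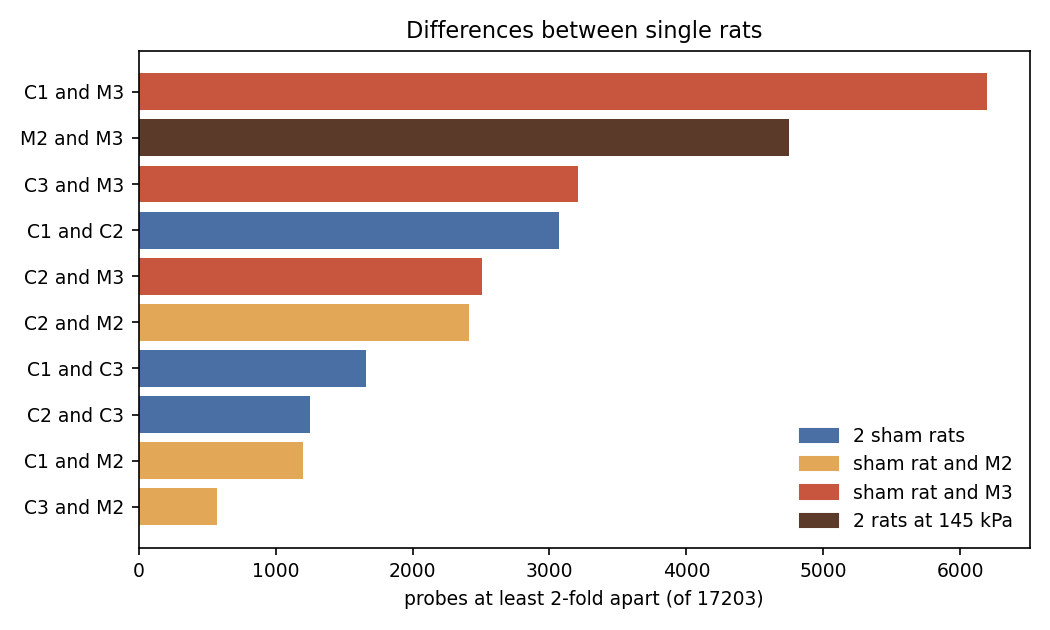
Number of probes at least 2-fold apart (horizontal axis) for each of the 10 pairs of rats, out of 17203 probes well above background on all 5 arrays. The pair C1 and M3 has the most, 6196, and the pair C3 and M2 the fewest, 573; the 145 kPa rats M2 and M3 are apart at 4748.

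M2 and M3 often left the sham range on opposite sides. M2 was above all sham rats at 4503 of the 17203 probes and below them at 2995. M3 was above at 5545 and below at 6927. Both were above at 1386 probes and both below at 1287. At 2067 probes M2 was above and M3 below, and at 896 probes the reverse held. Within the sham range lay 56.4% of the probes in M2 and 27.5% in M3.

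No probe passed the test for the group difference. With limma, 0 of 30236 probes (0%) passed at an adjusted p under 0.05, 0.971 being the smallest value reached. At an unadjusted p under 0.05 there were 1070 probes (3.54%), 542 higher (1.79%) and 528 lower (1.75%) at 145 kPa; this threshold alone would pass 1512 if no probe differed. The one-way analysis of variance, run without limma's shared variance, gave 0 probes at an adjusted p and 870 at an unadjusted p under 0.05. Of the 1070 probes, 202 were at least 2-fold higher and 198 at least 2-fold lower. Both 145 kPa rats were above all 3 sham rats at 2376 probes (7.86%) and below them at 2265 (7.49%). With 10 ways to part 5 rats into 2 and 3, about 1 probe in 10 would separate each way if no probe differed. Both shares were lower than that. The median difference over all probes was -0.01, and the median size of the difference was 0.27. Leaving out M2 or M3 leaves a single rat at 145 kPa, whose group then has no measured spread. The counts of such fits are therefore not read as a group difference.

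By class of transcript, the shares at an unadjusted p under 0.05 lay near those over all probes. Of 19048 probes with a RefSeq mRNA accession, 364 (1.91%) were higher and 336 (1.76%) lower. For 2017 predicted RefSeq mRNAs the counts were 47 and 36, and for 3963 Ensembl transcripts 57 and 71. Among 191 non-coding RefSeq transcripts there were 3 in each direction.

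Different probes for a transcript gave a check within each array. For 1403 accessions with 2 probes well above background on all 5 arrays, the differences of the 2 probes had the same sign in 923 (65.8%), with a correlation of 0.465 across accessions. Where the brighter probe had an unadjusted p under 0.05, which was so for 35 accessions, the other probe had the same sign in 30, and in 10 of these it also had an unadjusted p under 0.05. Both probes of an accession were read on the same rats and share their differences, so the same sign is no separate evidence of a group difference, and accessions are not independent replicates.

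Named genes could be followed through the accessions of the qPCR genes, which the study picked after its own comparison of these arrays, so their directions are not independent evidence. A gene was read from its brightest probe. Of the 9 genes, both 145 kPa rats were above all sham rats in 3 and below them in 3, beside 7.86% and 7.49% of all probes. An unadjusted p under 0.05 was reached by 2 of the 9, beside 3.54% of all probes, and an adjusted p under 0.05 by 0 with limma. Their median difference was -0.26, beside -0.01 for all probes, and the median size of the difference was 0.64, beside 0.27. With 10 ways to part 5 rats into 2 and 3, the smallest p that a two-sided exact permutation test can give is 0.1.

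**Figure D3:**
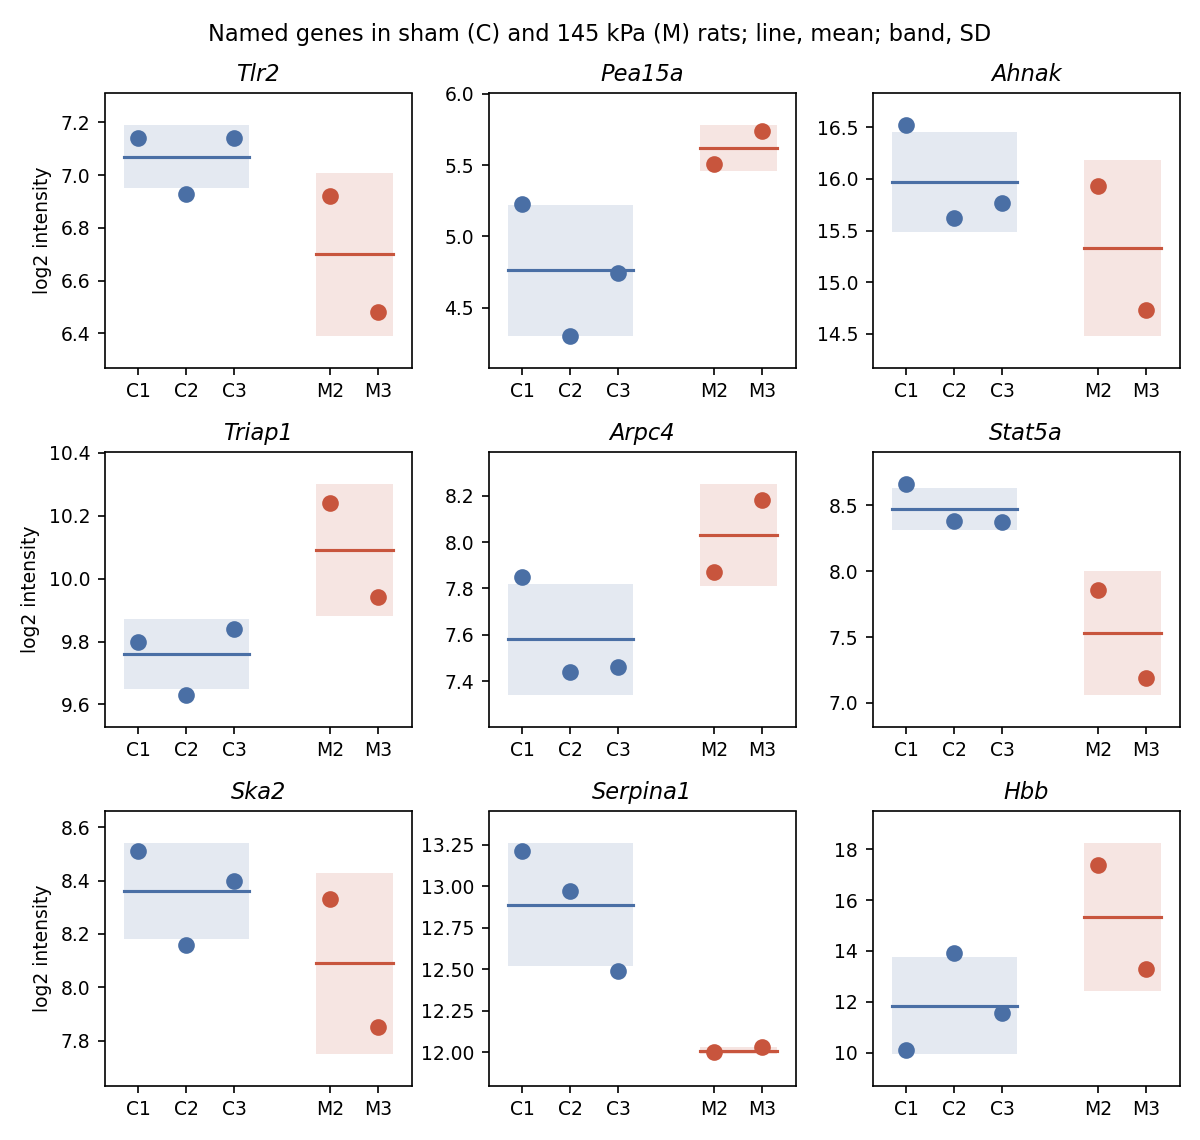
Log2 intensity after quantile normalization (vertical axis) of the brightest probe of 9 genes in the sham rats C1, C2 and C3 and the 145 kPa rats M2 and M3; lines are group means and bands 1 SD. The groups do not overlap for Tlr2, Pea15a, Triap1, Arpc4, Stat5a and Serpina1, and overlap for Ahnak, Ska2 and Hbb.

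Hbb encodes the beta chain of haemoglobin, the oxygen carrier of red blood cells, and its messenger RNA is abundant in young red cells. The brightest Hbb probe read 10.11, 13.90 and 11.55 in C1, C2 and C3 and 17.38 and 13.27 in M2 and M3. M2 was the highest of the 5 rats, while M3 lay below C2, so the groups overlapped. The mean difference was 3.47 ± 1.75 (SE), or 11.1-fold, with an adjusted p of 0.971 by limma. Taken singly, M2 was 46.2-fold and M3 2.66-fold above the sham mean. Within the rows of the slide, M2 exceeded the mean of C1 and C2 by 5.38 and M3 exceeded C3 by 1.72. The sham rats themselves had an SD of 1.91 for this probe, compared with 0.12 for Tlr2.

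The other Hbb probe read 4.80, 8.78 and 5.96 in C1, C2 and C3 and 12.40 and 9.64 in M2 and M3. Here both 145 kPa rats were above all sham rats, although M3 exceeded C2 by less than the sham rats differed among themselves. Its difference was 4.51 ± 1.54 (SE), with an adjusted p of 0.971 by limma and an exact permutation p of 0.2. Of the 17203 probes well above background on all 5 arrays, this one had the largest positive difference. Both Hbb probes ordered the sham rats in the same way, C1 lowest and C2 highest. Hbb marks red cells, and the part of blood in the differences of other genes was not tested.

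Serpina1 encodes alpha-1 antitrypsin, a secreted inhibitor of neutrophil elastase. Its probe read 13.21, 12.97 and 12.49 in the sham rats C1, C2 and C3 and 12 and 12.03 in M2 and M3. Both 145 kPa rats were below every sham rat, and they were nearly equal to each other. The difference was -0.88 ± 0.26 (SE), with an adjusted p of 0.971 by limma and an exact permutation p of 0.2. M2 alone differed from the sham mean by -0.90 and M3 alone by -0.87. Within the first row of the slide, M2 minus the mean of C1 and C2 was -1.10, and within the second row, M3 minus C3 was -0.46.

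Stat5a is a transcription factor that cytokine, prolactin and growth hormone receptors activate. It read 8.66, 8.38 and 8.37 in C1, C2 and C3, and 7.86 and 7.19 in M2 and M3. The sham rats lay close together, and both 145 kPa rats were lower, M3 more so. The difference was -0.94 ± 0.27 (SE), with an adjusted p of 0.971 by limma and an exact permutation p of 0.1, the smallest possible. M2 alone gave -0.61 and M3 alone -1.28. Within the rows of the slide the values were -0.66 for M2 and -1.17 for M3.

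Tlr2, a receptor of innate immunity for bacterial lipoproteins, read 7.14, 6.93 and 7.14 in the sham rats and 6.92 and 6.48 in M2 and M3. M2 was just below the lowest sham rat, so the separation of the groups rested on a gap smaller than the SD of 0.056 between the 2 spots of this probe in M2. The difference was -0.37 ± 0.21 (SE), made up of -0.15 in M2 and -0.59 in M3, with an adjusted p of 0.971 by limma.

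Ahnak, a very large scaffold protein beneath the plasma membrane, had 4 probes. The brightest read 16.52, 15.62 and 15.77 in C1, C2 and C3 and 15.93 and 14.73 in M2 and M3. M2 lay inside the sham range and only M3 lay below it; M2 alone differed from the sham mean by -0.04 and M3 alone by -1.24. The mean difference was -0.64 ± 0.50 (SE), with an adjusted p of 0.971 by limma. A dimmer Ahnak probe read 9.61, 9.56 and 9.45 in the sham rats and 8.95 and 8.82 in M2 and M3. This probe separated the groups, with a difference of -0.66 ± 0.15 (SE) that was similar in M2 (-0.59) and M3 (-0.72). The remaining Ahnak probes gave differences of -0.49, with the groups apart, and -0.09, with M3 above and M2 below every sham rat.

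Triap1, an inhibitor of apoptosis that p53 induces, was among the genes with higher values at 145 kPa. Its brightest probe read 9.80, 9.63 and 9.84 in the sham rats and 10.24 and 9.94 in M2 and M3. Both 145 kPa rats were above all sham rats, M3 by little. The difference was 0.33 ± 0.18 (SE), with an adjusted p of 0.971 by limma. The other Triap1 probe read 8.27, 8.41 and 8.40 in the sham rats and 8.80 and 8.76 in M2 and M3, a difference of 0.42 ± 0.14 (SE). On this probe M2 and M3 lay within 0.04 of each other and apart from the sham rats.

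Pea15a encodes a small phosphoprotein that binds ERK and components of the death receptor pathway. Its probe read 5.23, 4.30 and 4.74 in C1, C2 and C3 and 5.51 and 5.74 in M2 and M3. Both 145 kPa rats were above the sham rats, but the probe was dim and was not well above background in C2. The difference was 0.87 ± 0.33 (SE), or 0.75 in M2 and 0.98 in M3, with an adjusted p of 0.971 by limma. In C2 the 2 spots of the probe had an SD of 0.637, the largest of the 5 arrays.

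Arpc4, a subunit of the Arp2/3 complex that branches actin filaments, read 7.85, 7.44 and 7.46 in C1, C2 and C3 and 7.87 and 8.18 in M2 and M3. M2 and C1 were nearly equal, and M3 was higher than all others. The difference was 0.44 ± 0.22 (SE), with an adjusted p of 0.971 by limma. Ska2, part of the complex that couples kinetochores to spindle microtubules, read 8.51, 8.16 and 8.40 in the sham rats and 8.33 and 7.85 in M2 and M3. The groups overlapped, since M2 lay inside the sham range, and the difference was -0.26 ± 0.23 (SE). The second Ska2 probe had M2 above and M3 below all sham rats, at 6.57 and 5.36, with a difference of -0.20.

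Among the brightest probes of the 9 genes, Hbb had the largest difference and Stat5a the lowest unadjusted p by limma. The primers of both are shown because they tie each name to a transcript that can be measured apart from the array. They are the study's designed oligonucleotides, written from 5′ to 3′ in lower case.
Hbb forward: ggggaaaggtgaaccctgat
Hbb reverse: acaggtccccaaagctatcaa
Stat5a forward: cccgtgtcagttgtatccct
Stat5a reverse: accactactttagccagaccc

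Apart from the 9 genes, 513 accessions had groups that did not overlap, an unadjusted p under 0.05 and a brightest probe well above background throughout at least 1 group, 252 of them higher and 261 lower, out of 21896 accessions. The files used here do not pair these accessions with names, so only the 2 largest differences in each direction are given. NM_013096 read 12.57, 15.06 and 13.65 in C1, C2 and C3 and 17.68 and 16.32 in M2 and M3. The groups did not overlap, and the sham rats stood in the same order as for Hbb, C1 lowest and C2 highest. The difference was 3.23 ± 0.89 (SE), with 3.91 in M2 and 2.55 in M3 and an adjusted p of 0.971 by limma. A dimmer probe for NM_013096 gave 4.33 ± 1.65 (SE), also without overlap.

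NM_001000943 was well above background only in M2 and M3 among all 8 arrays. Its single spot read 6.40 and 5.56 there, while C1, C2 and C3 read 2.16, 2.19 and 2.14. It was well above background throughout a group only at 145 kPa, where it was high, so its rise is a description and not a test. Since sham follicles gave only a bound, the mean of M2 and M3 was at least 3.36-fold higher. This was set against the lowest signal that was well above background on each sham array. The bound is for that mean and not for each rat, and the adjusted p was 0.971 by limma. This bound holds for the processed signal: with normexp on the median signal, whose added offset of 50 shrinks differences of dim probes by construction, the difference was 0.99 on the log2 scale, which is smaller than the bound.

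In the other direction, NM_012824 read 11.45, 9.66 and 9.12 in C1, C2 and C3 and 7.78 and 7.0 in M2 and M3. Both 145 kPa rats were below all sham rats, and C1 was well above the other sham rats. The difference was -2.69 ± 0.81 (SE), with an adjusted p of 0.971 by limma. NM_001013062 read 5.75, 5.22 and 5.52 in the sham rats and 2.27 and 3.49 in M2 and M3, where it was not well above background. It was well above background throughout a group only in sham, where it was high, so its fall is likewise a description. The mean at 145 kPa was at least 2.26-fold lower, on the processed signal and against the same kind of limit. The adjusted p was 0.971 by limma. With normexp and its offset the difference was -0.62, again smaller than the bound.

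Whether 145 kPa differed from the highest pressure was tested directly between M2 and M3 and the 2 rats at 200 kPa. By limma, 0 of 30251 probes (0%) passed at an adjusted p under 0.05, the smallest being 0.938. At an unadjusted p under 0.05, 464 probes (1.53%) were higher and 799 (2.64%) lower at 145 kPa. Without M2 there were 6616 such probes in all, without M3 2757, and without the 200 kPa rats numbered 1 and 3 there were 484 and 761, against 1263 with all 4 rats. In each of these fits a single rat stood against 2, and was assumed to vary like the 2 rats of the other group, whose spread alone entered. Of the 9 genes, 0 had an unadjusted p under 0.05. The brightest Hbb probe read 13.24 and 14.38 at 200 kPa, and 145 kPa minus 200 kPa was 1.52, with a 95% interval from -3.65 to 6.69. The other Hbb probe read 8.08 and 9.49 at 200 kPa, below M2 at 12.40 and M3 at 9.64. Its difference was 2.23, with an interval from -1.52 to 5.99. Stat5a read 7.84 and 7.72 at 200 kPa, between M2 and M3, with a difference of -0.25 and an interval from -1.19 to 0.68. Serpina1 read 11.99 and 11.78 at 200 kPa, with a difference of 0.12 and an interval from -0.39 to 0.64. The 4 accessions were chosen because M2 and M3 were far from sham; the same M2 and M3 values enter here, so the choice favours a difference from 200 kPa and what follows is a description, not a test. NM_012824 read 9.17 and 9.55 at 200 kPa, above both 145 kPa rats, with a difference of -1.97 and an adjusted p of 0.938 by limma. NM_013096 read 14.22 and 15.27 at 200 kPa, below both 145 kPa rats, with a difference of 2.25 and the same adjusted p. NM_001000943 read 2.12 in both 200 kPa rats and was not well above background there. NM_001013062 was well above background in 1 of the 2 rats at 200 kPa and in 0 of the 2 at 145 kPa, so no difference is given.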

How the data were processed

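RNA of pooled whisker follicles, 1 array per rat, was hybridised to a one-colour Agilent rat array. Per the file headers, spot intensity (the processed signal) came from Feature Extraction version 10.7.1.1. The log2 values that the authors deposited had a median of 6.7 in each of the 8 columns and correlated across spots at 0.9985 or above with the intensity on a log2 scale, so their scale is log2, without centring of probes. Control and outlier spots were left out, spots of a probe were averaged on log2, the 8 arrays were quantile normalized, a floor of 3 was set on the linear scale (0 values were under it), and 131 probes without a value on all 5 arrays were left out. Groups were compared with limma (version 3.58.1, lmFit with eBayes) under R version 4.3.3, with Benjamini-Hochberg adjustment over all probes, after a test on simulated data, and single genes also with a two-sided exact permutation test. All 8 arrays lay on 1 slide with 1 scan; its 2 rows and its sides were tried as blocks.

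RefSeq or Ensembl accessions were given for 25312 probes; 0 matched the gene table used here, which is that of Rattus rattus, the species in the labels, whereas Sprague-Dawley rats are a strain of Rattus norvegicus. Without matches, the gene lists and cell type markers that had been set were not analysed here. Names came from the study's primer list, of which 1 gene and some primers are not reported here. A gene or accession was its brightest probe. Accessions printed had the largest difference each way among those with an unadjusted p under 0.05, no overlap, and a level well above background on every array of a group; the same choice for 145 against 200 kPa was not printed. Where no array of a group was well above background, the fold is a bound: the mean of the brighter group against, per array, the higher of the lowest signal well above background and the probe's own. The members and lists were chosen with earlier results of these data known. Alternatives were other scalings, backgrounds, filters, tests and blocks, the deposited log2 values, and leaving out each rat.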

Additional observations from a re-analysis of the deposited data

How the results depend on the processing

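For 145 kPa against sham, every alternative that was run gave 0 probes at an adjusted p under 0.05, by limma or the analysis of variance; so did those run for 145 against 200 kPa, by limma: 75th percentile scaling, the filter, all 8 arrays, the deposited log2 values, the slide row, and each rat left out. The counts at an unadjusted p under 0.05 (1070, with 542 higher and 528 lower) moved to 597 (297 and 300) with scaling to the 75th percentile, and to 485 (215 and 270) among probes well above background on at least 2 of the 5 arrays. Among probes well above background on all 5, a filter chosen after seeing the data, they were 399 (174 and 225). With the replicate number as a block they were 495 (236 and 259). Deviations from the group means correlated at -0.36 for M2 with C2 and 0.039 for M3 with C3. With 2 rats at 145 kPa, the deviations of M2 and M3 mirror each other, so these are not separate checks. Whether the shared number stands for more than a label cannot be told from them. Leaving out 1 rat gave 849 to 4881 probes, 363 to 2576 higher and 374 to 2305 lower; where only M2 or M3 remained, that rat was assumed to vary like the sham rats. The 400 probes that were also at least 2-fold apart became 90 with normexp on the median signal (chosen after seeing the data; the planned version on the mean signal was not run), 233 with the filter on all 5 arrays, 204 with the analysis of variance, and 373 to 2818 without 1 rat. For 145 against 200 kPa, 1263 probes became 742 with 75th percentile scaling, 476 with the filter, 6617 with the slide row as a block, where M2 was alone in its row and M3 alone was compared, and 484 to 6616 without 1 rat. The cause of the other shifts was not tested. Of the 9 genes, 2 had an unadjusted p under 0.05, 5 when each gene was read from its probe with the lowest p, and 0 to 2 without 1 rat. The 2 were Stat5a and Serpina1, but Stat5a and Hbb with 75th percentile scaling and Pea15a and Hbb with the replicate block.

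The named genes and accessions had the same sign in all 249 recomputed differences, but the filters, the 4-group fit and the other tests leave a difference as it is, and leaving out 1 rat cannot reverse one whose groups do not overlap. The brightest Hbb probe ranged from 1.41 without M2 to 5.53 without M3, Stat5a from -1.28 to -0.61 and Serpina1 from -1.08 to -0.72. For the dim probes of Pea15a, NM_001000943 and NM_001013062, the differences with normexp, on another signal and with an offset of 50, were 0.29, 0.99 and -0.62; the offset shrinks such differences by construction, and the part of the signal used was not tested. Probes not well above background in a group limit its values to bounds.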
